A study of Mus musculus with 6 samples.

Results

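The genes described here are the 5 long-chain acyl-CoA synthetases of the mouse (Acsl1, Acsl3, Acsl4, Acsl5 and Acsl6) with Cpt1a, Dgat1 and Dgat2, which take up the acyl-CoA the synthetases make. They are 8 of 54532 genes in a table of read counts and were chosen by name, with the large difference of Acsl1 between the groups already known. Messenger RNA was sequenced from cultured peritoneal macrophages of the mouse, the resident phagocytes of the abdominal cavity, all kept in serum-containing medium. The 3 libraries labelled Rfx1 overexpression (overexpression 1, 2 and 3) were set against 3 negative control libraries (control 1, 2 and 3), and Rfx1 encodes a DNA-binding factor of the RFX family. The labels give neither the strain and age of the mice nor how Rfx1 was delivered. They also do not say whether replicates are different mice or different dishes, so errors and p-values cover the spread among these 6 libraries and no more.

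A long-chain fatty acid is inert in the cell until an acyl-CoA synthetase joins it to coenzyme A. The acyl-CoA can then be passed to carnitine by Cpt1a at the outer mitochondrial membrane and burned, or be built into phospholipids and, by the diacylglycerol acyltransferases Dgat1 and Dgat2, into triglyceride for storage in lipid droplets. In mouse macrophages Acsl1 is known as a gene that inflammatory stimuli raise.

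Libraries held 16461277 to 18795575 counts, and 13454 genes, with 7 of the 8 members among them, had enough counts to enter the fit. Values are CPM, counts scaled to a common library size, with TMM scaling, and log2 differences are Rfx1 overexpression minus negative control from edgeR's quasi-likelihood fit. Some libraries went against their labels or stood apart. Rfx1 itself had 40.7, 36.4 and 23.2 CPM in the overexpression libraries and 57.5, 11 and 14.8 CPM in the controls, highest in control 1, with no difference called (log2 difference 0.27 ± 0.58 SE, adjusted p = 0.80). Without control 1 the log2 difference of Rfx1 was 1.37 (adjusted p = 0.024), without control 1 and overexpression 3 it was 1.59 (adjusted p = 3.4e-05), and for overexpression 3 alone it was -0.25 (adjusted p = 0.95), so every direction here rests on the labels. All 8 macrophage markers had counts in all 6 libraries, and 3 of them rose: Cd14 (1380 to 4510 CPM with overexpression and 177 to 263 CPM in the controls), Adgre1 (527 to 845 and 154 to 342 CPM) and Itgam (430 to 507 and 192 to 293 CPM). Lyz2, the lysozyme of macrophages, had 44.6 and 40.8 CPM in overexpression 1 and 2 against 29200 CPM in overexpression 3 and 15700 to 38700 CPM in the controls. Values for overexpression 3 alone are therefore given beside those of the members, and for the other genes in the account of the lists. Mesothelial markers (10 genes) summed to 2.19 to 8.31 CPM with overexpression and 28.2 to 175 CPM in the controls, and fibroblast markers (6 genes) to 281 to 802 and 653 to 1690 CPM. T cell markers (6 genes) summed to 27.5, 3.83 and 5.17 CPM in controls 1, 2 and 3 and to 4.77 to 17.1 CPM with overexpression. B cell markers (5 genes) summed to 39.6, 25.4 and 18.6 CPM in these controls and to 13.6 to 20.0 CPM with overexpression. Both sums were highest in control 1. The part of these cells in the results was not tested. In bulk samples, fewer cells of a type and less RNA per cell cannot be told apart.

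Acsl1 (ENSMUSG00000018796, chromosome 8, positions 46471037 to 46536051 of mm10, + strand), the synthetase that supplies both oxidation and triglyceride synthesis in other tissues, had 559, 817 and 569 CPM in overexpression libraries 1, 2 and 3 and 51.0, 45.4 and 41.2 CPM in control libraries 1, 2 and 3. The groups lay far apart, with the lowest overexpression library 10.9 times the highest control. The means were 648 ± 146 and 45.9 ± 4.95 CPM (SD, n = 3 each), a fold of 14.1 and a log2 difference of 3.82 ± 0.27 (SE), the size that ranked 126 from the top among the 13454 genes fitted. By level, Acsl1 was the 290th, 174th and 214th most counted gene in overexpression libraries 1, 2 and 3, and the 2980th, 3253rd and 3584th in the controls. For overexpression 3 alone, the overexpression library with high Lyz2, the log2 difference of Acsl1 against the controls was 3.64. The antisense locus Gm45244, which shares 1039 exonic bases with Acsl1, had at most 21 counts in any library, against 8175 to 14436 counts of Acsl1 with overexpression and 756 to 1082 in the controls.

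RefSeq (GRCm38.p6) lists a pair of start sites for Acsl1, and gene counts do not tell which was used. The 250 bases before each are shown because Acsl1 is the member with the largest difference in CPM. Capitals mark matches, on either strand, to a permissive form of the NF-kB motif, GGG and CC with any 5 bases between them.
Acsl1 upstream start, chr8:46470787-46471036, + strand: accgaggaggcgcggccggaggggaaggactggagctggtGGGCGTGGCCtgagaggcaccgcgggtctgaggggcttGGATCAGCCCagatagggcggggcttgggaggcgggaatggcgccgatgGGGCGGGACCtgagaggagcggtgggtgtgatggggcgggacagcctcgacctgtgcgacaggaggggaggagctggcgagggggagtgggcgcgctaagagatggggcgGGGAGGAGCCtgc
Acsl1 downstream start, chr8:46490716-46490965, + strand: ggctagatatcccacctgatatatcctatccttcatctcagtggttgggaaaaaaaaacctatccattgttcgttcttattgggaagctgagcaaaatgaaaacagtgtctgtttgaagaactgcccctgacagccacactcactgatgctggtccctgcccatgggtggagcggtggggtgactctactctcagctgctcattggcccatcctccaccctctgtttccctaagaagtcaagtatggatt

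The upstream window is rich in G and C and held 4 matches to this motif, and the downstream window held 0. The window of Acsl3 also held 4, that of Acsl4 3 and that of Cpt1a 2, and 45.8% of 32851 mouse promoter windows of the same length held at least 1. Neither window held GTTGCC, 1 arm of the X-box that RFX proteins bind, which 10.4% of windows hold, nor a direct repeat of AGGTCA with 1 base between, the element of PPAR receptors (0.0335%), nor TGANTCA of AP-1 (6.75%) or TTGCGCAA of C/EBP (0.164%), on either strand. None of the 9 windows listed for 6 members held GTTGCC. No window was listed for Dgat1 or Dgat2, so these genes were not examined. A match or its absence describes these letters in this window only.

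**Figure D1:**
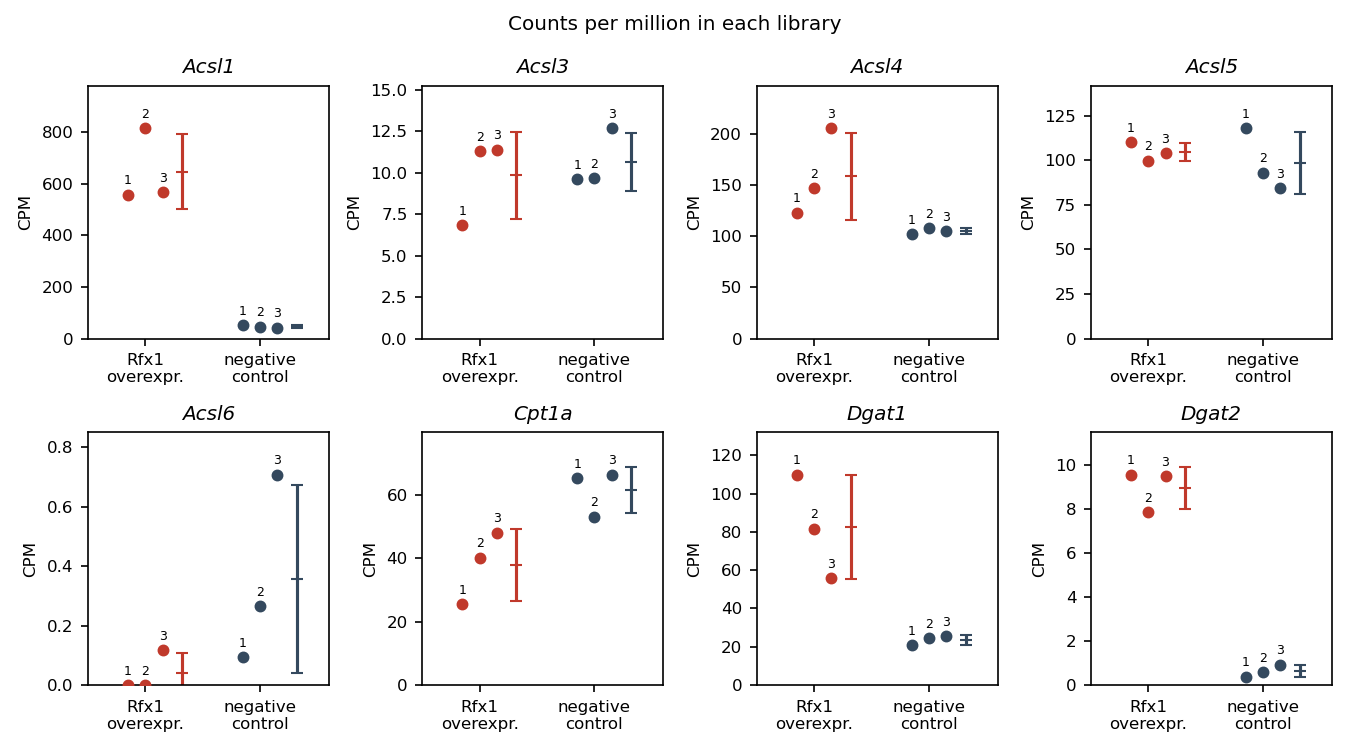
CPM (y axis, linear, each panel with its own scale from 0) of the 8 genes in each library, numbered by replicate, with Rfx1 overexpression on the left and negative control on the right; bars are the mean and SD of 3 libraries, cut at 0 for Acsl6. The groups lie far apart in Acsl1 (559 to 817 against 41.2 to 51.0 CPM) and Dgat2, and overlap in Acsl3, Acsl5 and Acsl6.

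The other synthetases did not share the difference of Acsl1. Acsl4, which prefers arachidonate and other polyunsaturated fatty acids, had 123, 147 and 206 CPM with overexpression and 102, 108 and 105 CPM in the controls, every overexpression library above every control. The log2 difference was 0.60 ± 0.23 (SE), and it was uneven: 0.36 without overexpression 3, and 0.98 for overexpression 3 alone. Acsl5 (chromosome 19), a synthetase of mitochondria and endoplasmic reticulum, had 110, 99.7 and 104 CPM with overexpression and 118, 92.9 and 84.4 CPM in the controls. These groups overlapped, with a log2 difference of 0.09 ± 0.20 that was -0.12 when libraries were scaled by total counts alone. Acsl5 shares 404 exonic bases with Zdhhc6 on the opposite strand, which had 707 to 1109 counts per library, and the strand setting of the counting is not given in the sources used here.

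Acsl3, the synthetase found on nascent lipid droplets, was low in both groups, with 6.83, 11.3 and 11.4 CPM against 9.62, 9.68 and 12.7 CPM. Its groups overlapped, and the sign of its log2 difference of -0.12 ± 0.28 turned with the library left out (-0.24 to 0.10). Acsl6, known mainly from brain, had 0, 0 and 2 counts with overexpression and 2, 5 and 13 counts in the controls. It was the member with too few counts for the fit. The groups of Acsl6 overlapped, with 0.118 CPM in overexpression 3 and 0.0943 CPM in control 1. Its summed level in the controls was 8.44 times that with overexpression, but 13 of the 20 control counts came from control 3.

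The make-up of the family therefore differed between the groups. Counted per kilobase of exon, Acsl1 made up 53.2%, 60.7% and 46.6% of the 5 synthetases in overexpression libraries 1, 2 and 3, and 9.70%, 9.48% and 8.98% in the controls. Acsl5 made up 22.5%, 16% and 18.4% with overexpression and 48.2%, 41.8% and 39.6% in the controls, and Acsl4 25.6 ± 6.27% and 42.0 ± 3.75%. As the CPM of Acsl5 overlapped, its smaller share goes with the larger total: the 5 genes summed to 100, 128 and 116 CPM per kilobase with overexpression and 50.2, 45.7 and 43.7 in the controls. These shares depend on the length used. All annotated exons of Acsl1 span 10483 bases, but its 3 coding transcripts have a median of 3429, and with such lengths, chosen after seeing the data, Acsl1 made up 75.7 ± 5.14% with overexpression and 21.9 ± 0.806% in the controls. On either length Acsl1 was the leading synthetase in each overexpression library and stood below Acsl4 and Acsl5 in each control.

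**Figure D2:**
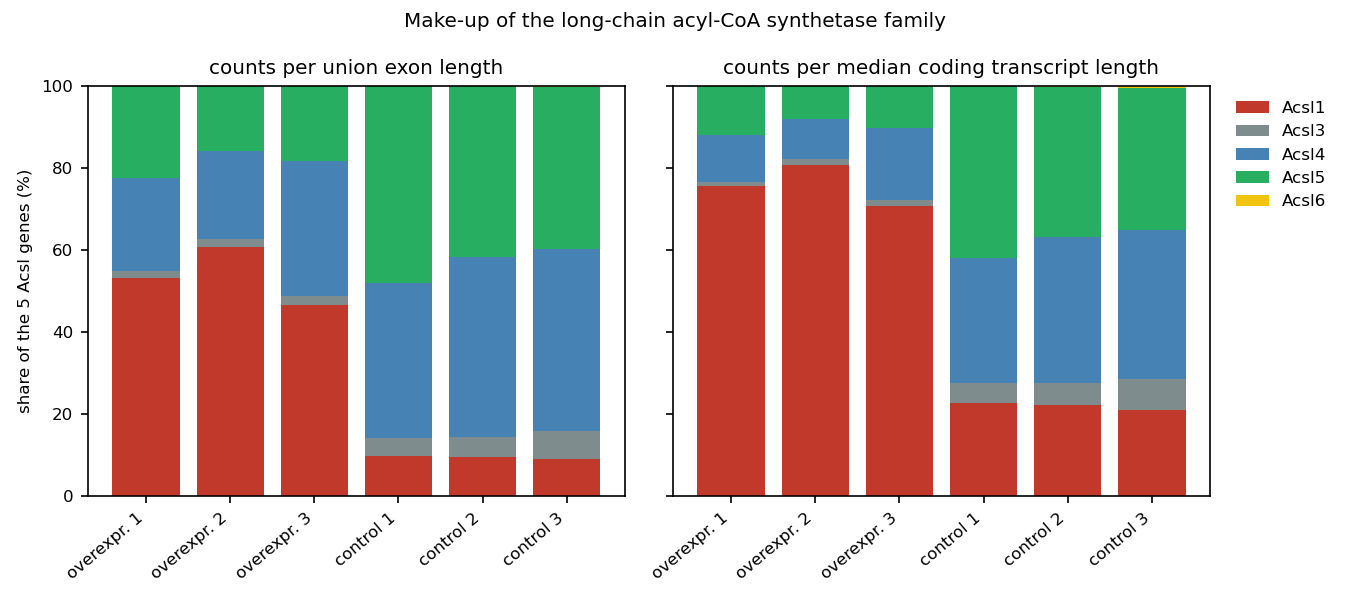
Share of each synthetase (y axis, percent of the 5 Acsl genes, from 0 to 100) in each library, from counts per union exon length (left) and per median coding transcript length (right), overexpression libraries left of the controls. The Acsl1 segment is the largest in all 3 overexpression libraries and is 8.98% to 9.70% of the controls on the left, and 21% to 22.5% on the right.

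Cpt1a (chromosome 19), the gate through which long-chain acyl groups enter mitochondria, had lower values with overexpression but was not among the genes called. It had 25.5, 40.1 and 48.0 CPM in overexpression libraries 1, 2 and 3 and 65.1, 53.0 and 66.3 CPM in the controls. The groups did not overlap, though overexpression 3 was at 0.907 times the lowest control. The log2 difference was -0.70 ± 0.26 (SE) over all libraries, -0.46 without overexpression 1 and -0.35 for overexpression 3 alone. With Acsl1 so much higher, the balance between the genes differed more than Cpt1a itself: per kilobase of exon, Acsl1 was 16, 14.8 and 8.63 times Cpt1a with overexpression and 0.571, 0.624 and 0.452 times Cpt1a in the controls.

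Both genes for the last step of triglyceride synthesis were higher with overexpression. Dgat1 (chromosome 15, positions 76502015 to 76511953, - strand), the enzyme that esterifies exogenous fatty acids, had 110, 81.8 and 55.8 CPM with overexpression and 20.8, 24.5 and 25.5 CPM in the controls. The groups did not overlap, and overexpression 3 lay nearest the controls. The means were 82.5 ± 27.1 and 23.6 ± 2.46 CPM (SD, n = 3 each) and the log2 difference was 1.81 ± 0.27 (SE), 1.25 for overexpression 3 alone.

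Dgat2 (chromosome 7, positions 99153658 to 99182719, - strand), an enzyme of the same reaction that is unrelated to Dgat1 in sequence, was nearly silent in the controls. It had 140, 139 and 161 counts with overexpression, or 9.57, 7.87 and 9.49 CPM, and 8, 11 and 17 counts in the controls, or 0.377, 0.585 and 0.926 CPM. The overexpression libraries were close to one another and at least 8.50 times every control. The log2 difference was 3.83 ± 0.41 (SE), as large as that of Acsl1, and 3.92 for overexpression 3 alone. Dgat1 remained the more abundant: per kilobase of exon it was 11.6, 10.5 and 5.93 times Dgat2 with overexpression and 55.6, 42.2 and 27.8 times Dgat2 in the controls.

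By level per kilobase of exon, the members ran with overexpression from Acsl1 (53.3 to 77.9 CPM per kilobase) through Acsl4 (22.7 to 38.1), Dgat1 (18.3 to 36.0) and Acsl5 (20.5 to 22.6) to Cpt1a (3.34 to 6.29), Dgat2 (2.55 to 3.10), Acsl3 (1.57 to 2.61) and Acsl6 (at most 0.0119). The range of Dgat1 overlapped those of Acsl4 and Acsl5, and that of Dgat2 overlapped Acsl3. In the controls the order was Acsl5 (17.3 to 24.2) and Acsl4 (18.9 to 20.0), then Cpt1a (6.93 to 8.68) and Dgat1 (6.81 to 8.34), then Acsl1 (3.93 to 4.87), Acsl3 (2.21 to 2.92), Dgat2 (0.122 to 0.300) and Acsl6 (at most 0.0714). In the controls the ranges of Acsl5 and Acsl4 overlapped, as did those of Cpt1a and Dgat1. Per kilobase of coding transcript, Acsl1 in the controls (12 to 14.9) overlapped Cpt1a (12.3 to 15.4) and Dgat1 (11 to 13.5). With overexpression on that length, Dgat1 (58.2, 43.3 and 29.6 CPM per kilobase) stood above Acsl4 (24.4, 29.2 and 40.8) in overexpression 1 and 2 and below it in overexpression 3.

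Of the 7 members fitted, Acsl1, Dgat1 and Dgat2 were among the genes called higher at an adjusted p of 0.05, where 6.90% of all genes fitted were called higher and 5.97% lower. In 4 members, with Acsl4 the other one, every overexpression library lay above every control, as in 16.3% of all genes fitted, and in Cpt1a every one lay below, as in 17.1%. Nothing is read from these counts, since the genes were proposed from this same contrast. In all, 928 genes were called higher and 803 lower, or 648 and 910 when libraries were scaled by total counts alone. That scaling put the median log2 difference of all genes at -0.20. Under that scaling Acsl1, Dgat1 and Dgat2 had log2 differences of 3.62, 1.58 and 3.64, and Cpt1a -0.87.

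Markers of cell types known for high Acsl1 or Dgat2 were examined beside these values. Of 7 adipocyte markers, 5 (Adig, Cfd, Cidec, Lep and Plin1) had 0 counts in all 6 libraries, and the sum of the list was at most 0.889 CPM. Of 8 neutrophil markers, the sum was 339, 137 and 47.2 CPM with overexpression and 8.44, 12.6 and 18.1 CPM in the controls, nearly all of it from S100a8 (335, 135 and 46.0 CPM, and 7.83 to 15.3 CPM). The defining marker Ly6g had 0 counts in every library and S100a9 at most 0.792 CPM. Camp had 2.80, 0.792 and 0.589 CPM with overexpression and 0 counts in the controls, and Cxcr2 had 0 counts with overexpression and 0.0943, 1.01 and 2.34 CPM in the controls. The part of neutrophils in the values of the members was not tested.

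The genes whose profile over the 6 libraries lay nearest that of Acsl1 were Cd274, Clec4e, Aqp9, Slc25a37 and Acpp. Their Euclidean distances of centred log2 CPM were 0.61, 0.63, 0.68, 0.82 and 0.87 log2 units, against a median of 4.73. Ranked were 9435 fitted genes with a mean of at least 5 CPM. Genes without a symbol, or with a predicted or clone symbol (Gm and digits, or ending in Rik), were left out. Cd274 encodes the checkpoint ligand PD-L1, Clec4e the lectin Mincle, Aqp9 a channel for water and glycerol, Slc25a37 a mitochondrial iron importer, and Acpp an acid phosphatase. Aqp9 had 24.6, 35.8 and 28 CPM with overexpression and 3.07, 3.30 and 2.23 CPM in the controls. Clec4e had 2610, 2960 and 1970 CPM with overexpression and 243, 264 and 166 CPM in the controls. All of them were, like Acsl1, high in all 3 overexpression libraries, which is what a short distance to Acsl1 selects. Dgat1 was the nearest member with a sufficient mean, ranked 249 at a distance of 2.67, and Dgat2 was below the minimum mean.

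**Figure D3:**
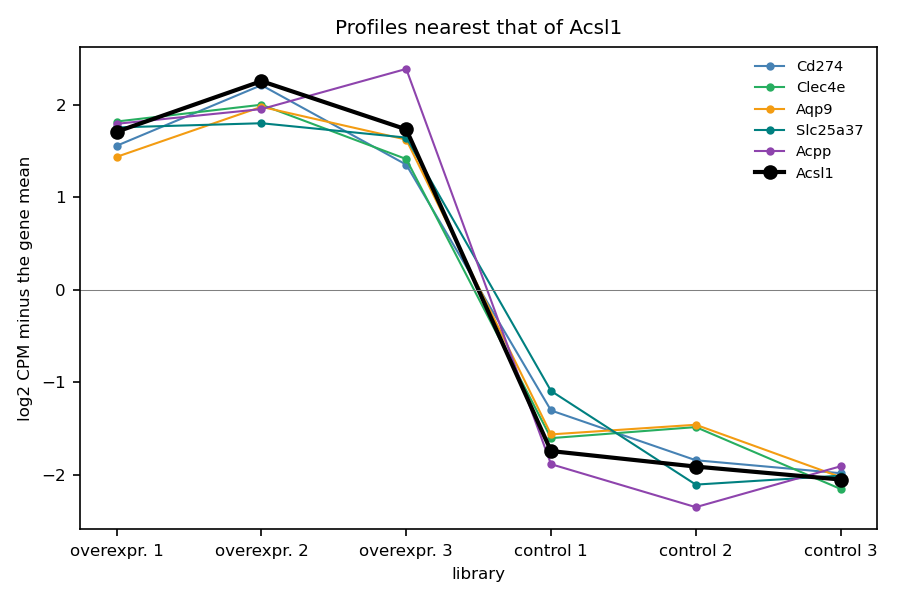
Log2 CPM minus the gene's mean (y axis) in each library (x axis) for Acsl1 (black) and the 5 genes nearest to it; lines only join the values of a gene. All 6 genes are high in the 3 overexpression libraries, and Acpp is highest in overexpression 3, where it had 246 CPM.

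The other genes of fatty acid metabolism were taken as 8 lists with 191 genes, none of them a member, of which 145 had enough counts. In edgeR's quasi-likelihood test, adjusted over all 13454 genes, 9 rose and 17 fell, 6.21% and 11.7% of those tested, where 6.90% and 5.97% of all genes did. Their median log2 difference was -0.11, against -0.006 over all genes. Of the 13454 genes, DESeq2 called 1363 higher and 1207 lower, and limma-voom, run with a quality weight for each library, 2453 and 2667. A limma-voom call named below is therefore common among all genes. The number that fell moved with the library left out, as did that of all genes, given in brackets (803 with every library). It was 4 without overexpression 2 (250), 7 without control 2 (280), 9 without overexpression 1 (483) and 9 without control 3 (388). It was 15 without control 1 (783) and 29 without overexpression 3 (1800). Without overexpression 3, 15 of the lists and 1657 of all genes rose. For overexpression 3 alone, with the spread taken from the controls, 5 rose (Elovl7, Fabp3, Gpat3, Hilpda and Lpcat2, at an adjusted p of 0.031 to 0.049) and 1 fell (Nr1h3, at 0.029). No other call named in the lists passed there, and some differences were smaller: the log2 difference was 2.35 for Hilpda, 0.90 for Bscl2 (adjusted p = 0.11), 1.06 for Cebpb (0.11), -1.09 for Fasn (0.24), -1.16 for Scd1 (0.15) and -0.58 for Lpin1 (0.30).

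**Figure D4:**
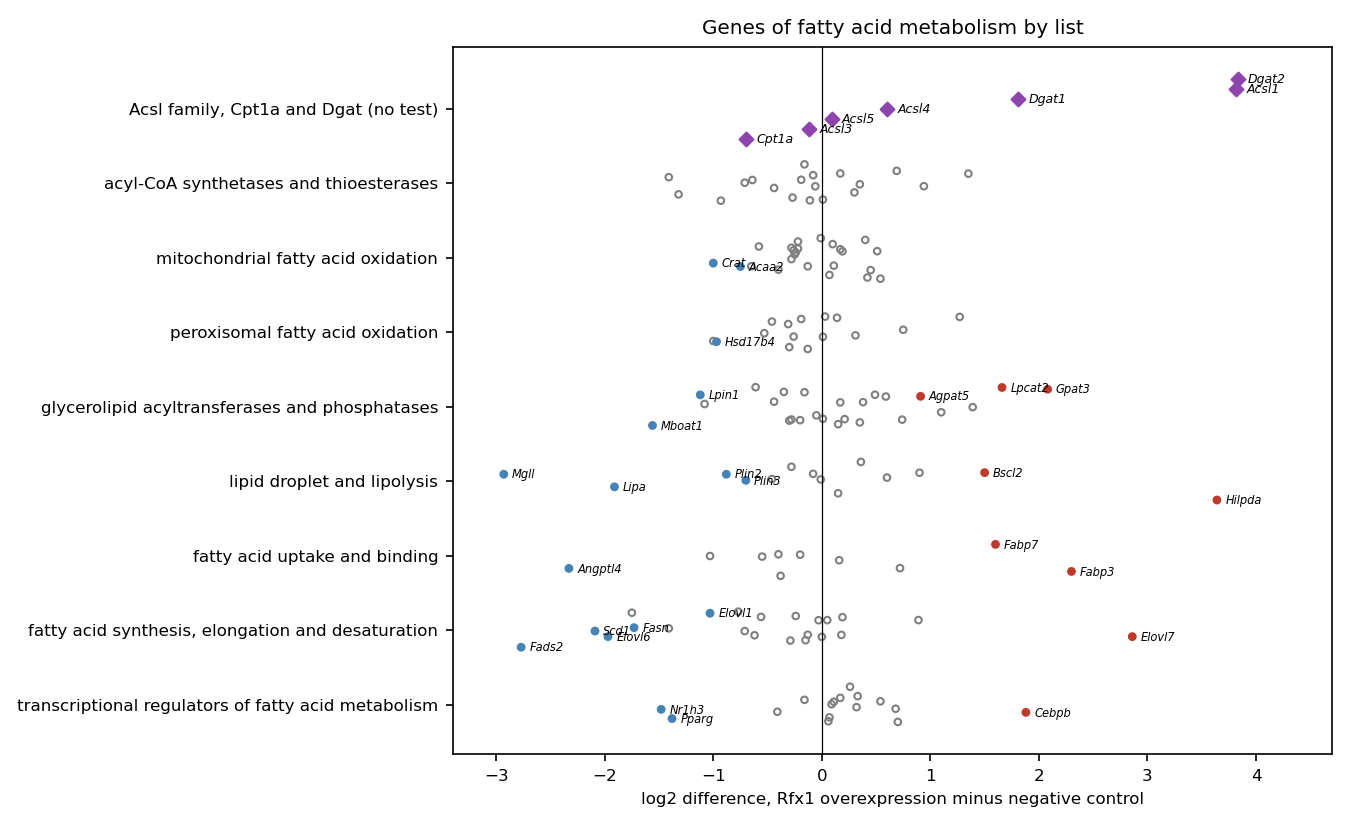
Log2 difference, Rfx1 overexpression minus negative control (x axis), of each gene with enough counts in the 8 lists of fatty acid metabolism (rows) and of the 7 fitted members (top row, diamonds, given without a test). Filled points passed at an adjusted p of 0.05 (red higher, blue lower) and open points did not; in fatty acid synthesis, elongation and desaturation 5 fell and Elovl7 rose.

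Among the other acyl-CoA synthetases and the thioesterases that reverse their reaction, no gene of 19 tested was called by edgeR, with 3 lower and 2 higher at an unadjusted p below 0.05. DESeq2 called 1 higher and 1 lower, limma-voom 2 and 6, and 2 and 3 were called without overexpression 3. Values lay in both directions. Among genes chosen after their values were seen, the thioesterase Acot7 had 39.9 ± 15.3 CPM with overexpression and 20.8 ± 0.926 CPM in the controls (adjusted p = 0.053), and Acot11 had 2.95 ± 1.68 and 7.39 ± 2.10 CPM (adjusted p = 0.074). The acetyl-CoA synthetase Acss1 had 10.7 ± 2.14 and 17.5 ± 1.86 CPM (adjusted p = 0.085), and the fatty acid transport protein Slc27a6 had 5.96 ± 6.03 and 15.9 ± 2.32 CPM (adjusted p = 0.16).

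Mitochondrial fatty acid oxidation, the route that Cpt1a opens, showed 2 genes lower and none higher of 24 tested by edgeR, with 4 lower and 1 higher at an unadjusted p below 0.05, and a median log2 difference of -0.18. The 2 lower genes were 8.33% of those tested, beside 5.97% of all genes. With DESeq2 2 were lower and none higher, with limma-voom 5 lower and 1 higher. Of all 13454 genes, limma-voom called 2667 lower. Crat, carnitine acetyltransferase, fell to 33.4, 27.6 and 35.5 CPM with overexpression, against 65.6, 65.7 and 61.0 CPM in the controls (log2 difference -1.0 ± 0.20, adjusted p = 0.010, 0.075 without overexpression 2). Acaa2, the thiolase of the last step, fell to 26.0 ± 2.46 CPM, against 43.9 ± 4.46 CPM in the controls (adjusted p = 0.034, a call lost without overexpression 2 or any 1 control, at 0.072 to 0.16). Cpt2, which hands the acyl group back to coenzyme A inside the mitochondrion, had 20.7 ± 0.901 and 18.4 ± 0.979 CPM (adjusted p = 0.62). Hadha, of the trifunctional protein, had 65.7 ± 7.56 and 86.8 ± 3.08 CPM (adjusted p = 0.20), and Acadvl, the very long-chain dehydrogenase, 20.1 ± 1.67 and 30.1 ± 2.11 CPM (adjusted p = 0.081). With limma-voom both passed as lower (adjusted p = 0.022 for Hadha and 0.0063 for Acadvl). Acadvl shares 1151 exonic bases with Dvl2 on the opposite strand.

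In peroxisomal oxidation, Hsd17b4, a bifunctional enzyme of the pathway, was the 1 gene of 15 that fell, 6.67% beside 5.97% of all genes. None was higher by edgeR (DESeq2 and limma-voom each called 1 higher). Hsd17b4 had 51.4 ± 7.62 CPM with overexpression and 100 ± 5.43 CPM in the controls (log2 difference -0.97 ± 0.20, adjusted p = 0.013, 0.084 without overexpression 2 and 0.052 without control 2).

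Of 25 tested glycerolipid acyltransferases and phosphatases, which include enzymes of the route to the Dgat reaction and of phospholipid remodelling, 3 rose and 2 fell. Gpat3, a glycerol-3-phosphate acyltransferase of the endoplasmic reticulum that starts triglyceride synthesis, rose to 12.4, 14.6 and 12.1 CPM with overexpression, against 2.64, 3.51 and 3.10 CPM in the controls (log2 difference 2.08 ± 0.27, adjusted p = 0.0017). It passed with each library left out in turn. Gpat4, a more abundant gene of the same step named after its values were seen, did not pass (adjusted p = 0.52). It had 94.5, 83.8 and 77.3 CPM with overexpression and 79.0, 68.2 and 74.0 CPM in the controls. Gpam, the mitochondrial enzyme of the same step, had 1.16, 3.96 and 9.37 CPM with overexpression and 8.73, 8.67 and 13.3 CPM in the controls. These groups overlapped, and the difference did not pass (adjusted p = 0.27; 0.012 without overexpression 3, 0.025 without a filter and 0.0066 with limma-voom). Lpin1, the phosphatase that makes the diacylglycerol the Dgat enzymes use, fell to 15.6 ± 6.14 CPM, against 34.0 ± 1.14 CPM in the controls (adjusted p = 0.027), a call that passed only without overexpression 3 among the 6 left-out libraries (otherwise 0.051 to 0.14).

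Lpcat2, which remodels phosphatidylcholine and makes platelet-activating factor, rose to 92.9 ± 8.92 CPM, against 29.3 ± 9.87 CPM in the controls (log2 difference 1.66 ± 0.27, adjusted p = 0.0048). Lpcat3, the enzyme that puts arachidonate made ready by Acsl4 into phospholipids, had 32.9 ± 6.48 and 44.6 ± 2.02 CPM (adjusted p = 0.20, 0.014 with limma-voom). Agpat5 rose to 98.9 ± 6.08 CPM, against 52.6 ± 12.5 CPM in the controls (adjusted p = 0.025), and Mboat1 fell to 1.37 ± 0.149 CPM, against 4.07 ± 0.223 CPM (adjusted p = 0.021). Agpat5 did not pass with scaling by total counts alone (0.061) or without overexpression 1, overexpression 2, control 1 or control 3 (0.052 to 0.13), and Mboat1 not without overexpression 1, overexpression 2, control 2 or control 3 (0.055 to 0.093). No gene of this list fell without overexpression 1, overexpression 2, control 2 or control 3, and 4 fell without overexpression 3.

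Among lipid droplet and lipolysis genes, 2 of 14 tested rose and 4 fell, or 14.3% and 28.6%, beside 6.90% and 5.97% of all genes. Hilpda, a droplet protein that inhibits the lipase Pnpla2, rose to 867, 699 and 246 CPM with overexpression, against 33.6, 74.2 and 37.5 CPM in the controls (log2 difference 3.64 ± 0.51, adjusted p = 0.0027). Bscl2, which encodes the droplet assembly factor seipin, rose to 491, 346 and 234 CPM, against 126, 131 and 121 CPM in the controls (log2 difference 1.5 ± 0.28, adjusted p = 0.0083). In both, as in Dgat1, overexpression 3 lay nearest the controls. Both passed with each library left out in turn, but for overexpression 3 alone Bscl2 did not (adjusted p = 0.11). Bscl2 shares 398 exonic bases with Gng3, which had at most 1 count, and 239 on the same strand with AC129217.1, for which no count was used here.

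Lipa, the acid lipase of lysosomes, fell to 216, 269 and 423 CPM with overexpression, against 1090, 1170 and 1140 CPM in the controls (log2 difference -1.91 ± 0.30, adjusted p = 0.0037), and passed with each library left out in turn, but not for overexpression 3 alone (-1.41, adjusted p = 0.097). The droplet coat gene Plin2 fell to 412 ± 15.6 CPM, against 758 ± 92.5 CPM in the controls (adjusted p = 0.031), so the coat and the Dgat genes went in opposite directions. Plin3, another coat gene, fell to 97.6 ± 5.15 CPM, against 159 ± 10.4 CPM (adjusted p = 0.037). Plin2 lost its call without overexpression 1, overexpression 2, control 2 or control 3 (0.077 to 0.13), Plin3 without any 1 library but overexpression 3 (0.056 to 0.17), and the list had 1 fallen gene without any of overexpression 1, overexpression 2, control 2 or control 3. The other gene that fell, named after its values were seen, was the monoglyceride lipase gene Mgll, with 6.70, 2.66 and 25.9 CPM with overexpression and 39.3, 109 and 121 CPM in the controls (adjusted p = 0.043). Pnpla2, the adipose triglyceride lipase, had 71.6 ± 10.3 and 98.7 ± 11.6 CPM (adjusted p = 0.17, 0.015 with limma-voom).

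Of 10 tested genes of fatty acid uptake and binding, Fabp3 and Fabp7 rose and Angptl4 fell. That is 20.0% higher and 10.0% lower, beside 6.90% and 5.97% of all genes. Fabp3, a cytosolic fatty acid carrier best known from heart, rose to 17.3, 13.2 and 19.7 CPM with overexpression, against 1.89, 4.15 and 4.14 CPM in the controls (log2 difference 2.30 ± 0.35, adjusted p = 0.0034), and Fabp7 to 25.4 ± 6.18 CPM, against 8.39 ± 1.22 CPM (adjusted p = 0.0046). Angptl4, an inhibitor of lipoprotein lipase, fell to 1.11 ± 0.688 CPM, against 5.62 ± 0.710 CPM in the controls (adjusted p = 0.012, 0.055 without overexpression 2 and 0.059 without control 2). The lipase gene Lpl had 509 ± 60 and 456 ± 48.7 CPM (adjusted p = 0.69). Cd36, the fatty acid scavenger receptor, had 303, 497 and 664 CPM with overexpression and 912, 1200 and 890 CPM in the controls, groups that did not overlap but did not pass (adjusted p = 0.062; 0.011 without overexpression 3, 0.0072 with DESeq2 and 0.0035 with limma-voom).

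Fatty acid synthesis, elongation and desaturation had 5 of 22 tested genes lower and 1 higher, with a median log2 difference of -0.43. The shares were 22.7% lower and 4.55% higher, beside 5.97% and 6.90% of all genes. Fasn, the fatty acid synthase, fell to 11.5, 13.1 and 26.2 CPM with overexpression, against 62.8, 35.5 and 70.1 CPM in the controls (log2 difference -1.73 ± 0.37, adjusted p = 0.014, 0.051 without overexpression 1 and 0.085 without overexpression 2). Fads2, the delta-6 desaturase, fell to 1.86 ± 1.09 CPM, against 12.8 ± 6.51 CPM (adjusted p = 0.0070), and Elovl1, an elongase of very long chains, to 85.9 ± 7.37 CPM, against 176 ± 17.3 CPM (adjusted p = 0.0088, 0.066 without overexpression 2). Scd1, the stearoyl-CoA desaturase, fell to 5.26, 9.34 and 25.0 CPM, against 45.7, 49.1 and 73.8 CPM (adjusted p = 0.028), a call kept only without overexpression 3 or control 1 among the 6 left-out libraries (otherwise 0.053 to 0.12). The elongase Elovl6, named after its values were seen, also fell, to 2.09 ± 0.843 CPM, against 8.26 ± 4.64 CPM (adjusted p = 0.022). The risen gene was the elongase Elovl7, with 4.17 ± 0.813 and 0.569 ± 0.227 CPM (adjusted p = 0.0045). Fallen genes numbered 1 without overexpression 2, 2 without overexpression 1, 3 without control 2 or control 3, and 9 without overexpression 3.

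Of 16 tested transcriptional regulators, 1 rose and 2 fell, or 6.25% and 12.5%, beside 6.90% and 5.97% of all genes. Pparg, the lipid-activated receptor for which Acsl1 is a known target gene in adipocytes, fell to 12.2, 10.5 and 13.9 CPM with overexpression, against 28.7, 32 and 34.6 CPM in the controls (log2 difference -1.38 ± 0.21, adjusted p = 0.0035). Nr1h3, which encodes the sterol receptor LXR alpha, fell to 13.5, 11.6 and 11.1 CPM, against 34.9, 34.6 and 31.7 CPM in the controls (log2 difference -1.48 ± 0.20, adjusted p = 0.0021). Both passed with each library left out in turn, but for overexpression 3 alone Pparg did not (-1.19, adjusted p = 0.074). Cebpb, a factor of inflammatory and fat cell gene expression, rose to 1240, 763 and 465 CPM, against 263, 210 and 199 CPM in the controls (log2 difference 1.88 ± 0.36, adjusted p = 0.0087, 0.056 without control 2). Cebpb shares 312 exonic bases with Tmem189 on the opposite strand, which had 4652 to 9077 counts per library. Ppard had 32.2 ± 4.11 and 19.8 ± 4.49 CPM (adjusted p = 0.080; 0.049 without overexpression 3, 0.048 with DESeq2 and 0.016 with limma-voom), and Ppara had 0 counts with overexpression and at most 0.141 CPM in the controls.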

How the data were processed

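Poly(A) RNA of 6 samples of mouse peritoneal macrophages was sequenced with a stranded kit, per the labels. The authors deposited raw read counts per gene, with no normalization. For their making, featureCounts 1.5.0-p3 and mm10 stand in the submitters' processing notes beside DESeq2 1.20.0; the aligner, annotation release and strand setting were not given in the sources used here. Gene symbols and exons came from release 21 of GENCODE for the mouse (54495 of 54532 identifiers found). Groups follow the genotype label.

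edgeR 4.0.16 in R 4.3.3 gave all main tests: TMM factors, filterByExpr with the groups, a robust quasi-likelihood fit with group as its term, and Benjamini-Hochberg adjustment over 13454 genes at 0.05. The fit was run on simulated counts in which every gene had the same dispersion and no library stood apart. That run does not show how the test performs on these libraries. An SE is the log2 difference over the root of F. The members and lists were chosen with earlier results of these data known, and members get no p-value. Named list genes are up to 3 higher and 3 lower per list by smallest p, plus a panel, of which 1 gene is not reported here. Alternatives were RLE factors, total counts as the scale, no filter, DESeq2 1.42.0, limma-voom (limma 3.58.1), an adjusted p of 0.01, the replicate number as a block and each library left out. The limma-voom fit gave each library an estimated quality weight and used robust moderation of variances, so libraries could count unequally in it. Replicates correlated at 0.931 to 0.978 (log2 CPM, prior count 2) and libraries of different groups at 0.837 to 0.932, so the ranges just met. Counts of replicates differed beyond sampling noise (chi-square over its degrees of freedom 37.1 or more). Protein sequences were not used here.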

Additional observations from a re-analysis of the deposited data

How the results depend on the processing

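The log2 differences of the 7 fitted members kept their sign in 93 of 98 values under 14 alternatives; the exceptions were Acsl3 (0.10 without overexpression 1 and for overexpression 3 alone, 0.02 without control 3) and Acsl5 (-0.12 with library size only, -0.02 without control 3). With each library left out in turn they ranged from 3.63 to 3.94 for Acsl1, -0.24 to 0.10 for Acsl3, 0.36 to 0.77 for Acsl4, -0.02 to 0.23 for Acsl5, -0.91 to -0.46 for Cpt1a, 1.56 to 2.02 for Dgat1 and 3.56 to 4.20 for Dgat2. Acsl1 was at 4.12 with limma-voom. Counts of called genes moved more. With each library left out, 454 to 1657 genes of all were higher and 250 to 1800 lower, and 8 to 15 and 4 to 29 of the fatty acid metabolism lists. At an adjusted p of 0.01, 421 and 250 of all genes passed, and 8 and 5 of the lists. Without a filter 1457 and 1460 of all genes passed, with DESeq2 1363 and 1207, and with limma-voom 2453 and 2667, with 20 and 42 of the lists. The cause was not tested. Chosen after seeing the data, leaving out control 1 and overexpression 3 gave 1922 and 2022 of all genes and 17 and 32 of the lists. Leaving out overexpression 1 and 2 left a lone library, assumed to vary like the controls, with 261 and 87 of all genes, 5 and 1 of the lists, and log2 differences of 0.98 for Acsl4 and 1.25 for Dgat1. The share of Acsl1 in its family was 69.9% with overexpression and 17.6% in the controls from counts without lengths, and 75.7% and 21.9% per coding transcript length. Deviations of same-numbered libraries correlated at 0.0941, 0.0053 and 0.327, so the numbers are not taken as pairs, and not every library correlated best with its own number. With the replicate block, 957 and 945 of all genes and 9 and 17 of the lists passed, with a log2 difference of 3.8 for Acsl1; Acaa2, Plin2 and Plin3 did not pass (edgeR adjusted p = 0.060, 0.057 and 0.062). Depth limits Acsl6, with 2 counts over the overexpression libraries and 20 over the controls.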
